A study of Mus musculus with 6 samples.

Results

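NMDA receptor subunit genes were followed across the regions of the mouse brain at 3 ages. The members were the 6 genes with the symbols Grin1, Grin2a, Grin2b, Grin2c, Grin2d and Grin3a, out of 19465 genes counted in each library, and all 6 were listed in the matrix of every section. The spatial libraries came from 6 coronal, formalin-fixed and paraffin-embedded brain sections of untreated male C57BL/6J mice, 2 sections per age. The P21 mice were bred from wild-type animals and killed on postnatal day 21, the adult mice were 12 to 15 weeks old, and the aged mice were 28 months old and came from the NIA. In a spatial library, probes for each gene are counted as UMIs (unique molecular identifiers) in small round spots on a slide, and a spot can hold several cells of different types. P21 and adult sections lay directly on Visium v1 slides, whereas aged sections were moved by the CytAssist device to Visium v2 slides with a changed probe design. No spot barcode was shared between the aged and the other sections (0 shared), so that in any comparison of aged with adult the age cannot be told apart from the slide version.

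NMDA receptors are glutamate-gated cation channels that need a co-agonist, glycine or D-serine, and release from magnesium block before they conduct. Each receptor contains the obligatory subunit GluN1, encoded by Grin1, joined with GluN2 subunits (GluN2A to GluN2D, encoded by Grin2a to Grin2d) or with GluN3 subunits such as GluN3A (Grin3a). They are known for their part in synaptic plasticity, and in the forebrain the share of GluN2A relative to GluN2B is known to rise during postnatal maturation. GluN2C is known from cerebellar granule cells, the thalamus and astrocytes, GluN2D from the diencephalon and interneurons, and GluN3A from the young brain.

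All 6 genes are annotated as protein coding on the minus strand (GRCm38, GENCODE vM21). Grin1 (ENSMUSG00000026959) lies at chr2:25291181-25319187, and Grin2a (ENSMUSG00000059003) at chr16:9567898-9995560. Grin2b (ENSMUSG00000030209) lies at chr6:135713233-136173511, Grin2c (ENSMUSG00000020734) at chr11:115249169-115267243, Grin2d (ENSMUSG00000002771) at chr7:45831883-45878378 and Grin3a (ENSMUSG00000039579) at chr4:49661611-49845744. The probes reach the coding transcripts at places that the files do not give, and counts of different probes are not comparable levels. The CPM of a gene were therefore compared only with those of the same gene, and a ratio of genes only with the same ratio elsewhere. Between aged and adult sections the probe design changed, so this limit also holds for a single gene and for a ratio there. Grin1 had at least 1 UMI in 98.2% of the 20336 spots kept, Grin2b in 97.1%, Grin2a in 83.0%, Grin3a in 58.1%, Grin2c in 57.0% and Grin2d in 25.7%. The remaining family member in the files, Grin3b, had a UMI in 1.4% of spots and was too sparse to be tested.

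The RefSeq promoter table (GRCm38.p6) held 3 of the 6 members, Grin1, Grin2c and Grin2d. The 250 bases before the annotated start are shown for Grin1, the subunit shared by all receptors, and for Grin2c, whose level was concentrated in the thalamus. They lie at chr2:25319188-25319437 and chr11:115267244-115267493, both on the minus strand, and are written 5′ to 3′ with matches to an E-box (CACGTG) or a GC box (GGGCGG) on either strand in capitals. The Grin2d window was left out because it overlaps an exon of the GENCODE gene.
Grin1: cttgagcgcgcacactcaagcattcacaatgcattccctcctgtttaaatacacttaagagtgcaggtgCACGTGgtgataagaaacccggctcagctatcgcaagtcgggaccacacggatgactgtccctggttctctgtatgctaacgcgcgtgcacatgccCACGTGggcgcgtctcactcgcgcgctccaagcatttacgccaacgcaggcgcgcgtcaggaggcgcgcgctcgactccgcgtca
Grin2c: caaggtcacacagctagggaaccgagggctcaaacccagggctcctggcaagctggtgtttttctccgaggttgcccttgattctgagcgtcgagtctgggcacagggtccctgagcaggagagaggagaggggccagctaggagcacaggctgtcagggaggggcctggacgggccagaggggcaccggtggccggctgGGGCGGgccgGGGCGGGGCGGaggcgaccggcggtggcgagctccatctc
The Grin1 stretch had 58.8% G and C, 2 matches to the E-box, the nearer ending 79 bases before the start, and no match to the GC box. The Grin2c stretch had 68.8% G and C and 3 matches to the GC box, of which the last pair overlap by a single base. For comparison, 32.7% of 32851 promoter windows of this length held the GC box and 6.02% held the E-box. These matches describe letters in the window, and binding was not measured.

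Spots were grouped without the 6 subunit genes or the 73 genes of the NMDA receptor pathway list, and 17 clusters were named from marker panels. The 6 regions used were the cortex (CTX, marked by Lamp5 and Fezf2), hippocampus (HP; Fibcd1, C1ql2), thalamus (TH; Prkcd, Tcf7l2), hypothalamus (HY; Hcrt, Pmch), striatum (STR; Adora2a, Drd2) and fiber tracts (FT; Mobp, Mag), which together held 16499 spots. A section had 2917 to 3679 spots, a median of 12074.5 to 25535 UMIs per spot and 42422997 to 106783660 UMIs in all. The regions took different shares of each section, with the HY at 12.7% to 23.1% of spots and the HP at 6.64% to 12.2%. P21 sections held more UMIs of erythrocyte genes than adult sections (1311 to 2321 against 171 to 326 CPM, over 4 genes). CPM are counts per 1000000 UMIs, with library sizes scaled by edgeR's TMM factors. Aged sections held more of 7 immediate early genes (1125 to 1284 CPM, against 279 to 430 CPM in adult), and the part of either in the results below was not tested.

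The subunit genes fell into 2 regional patterns. Grin1, Grin2a and Grin2b were highest in the HP, and Grin2c, Grin2d and Grin3a were highest in the TH or HY. CPM below are UMIs of a gene per 1000000 UMIs of the same section and region, scaled by the TMM factors. They are given as mean ± SD over the 6 sections. Each step in the order of regions was tested within sections by edgeR's quasi-likelihood test with the section as a block, where 41.0% to 72.4% of all genes differed between any pair of regions. Of 30 steps between neighbouring regions, 13 passed an adjusted p of 0.05.

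Grin1, the obligatory subunit, was present in every region and had the flattest profile at the top. It reached 946 ± 31.5 CPM in the HP, 897 ± 107 in the CTX, 753 ± 69.4 in the TH, 741 ± 117 in the STR, 635 ± 82.0 in the HY and 422 ± 161 in the FT. Only the last step, from HY to FT, passed the test (log2 difference 0.50 ± 0.13 SE, edgeR adjusted p = 0.0012). The steps from CTX to TH and from STR to HY missed the threshold (edgeR adjusted p = 0.086 and 0.079), although the first of each pair was higher in 6 of 6 sections.

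Grin2a, which encodes the GluN2A subunit of mature forebrain synapses, had the steepest gradient of the 3 HP-high genes. It fell from 431 ± 55.8 CPM in the HP to 251 ± 26.9 in the CTX, 170 ± 26.1 in the STR and 164 ± 21.0 in the TH, then to 107 ± 48.2 in the FT and 75.6 ± 28.5 in the HY. Each of these steps passed the test except that from STR to TH (edgeR adjusted p = 0.91). Against the mean of the other 5 regions, Grin2a was higher in the HP by 1.69 ± 0.12 on the log2 scale (edgeR adjusted p = 8.06e-13) and lower in the HY, by -1.56 ± 0.15 (edgeR adjusted p = 6.30e-10). Between 44.8% and 69.8% of all genes passed such a comparison of a region with the others.

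Grin2b, which encodes GluN2B, was also highest in the HP, at 761 ± 128 CPM. The neighbouring steps between the TH (587 ± 138), CTX (567 ± 39.7) and STR (545 ± 47.8) did not pass the test over all ages. The CTX lay above the TH in both P21 sections (549 and 625 against 423 and 481 CPM). It lay below the TH in both aged sections (603 and 566 against 763 and 741 CPM). The HY (304 ± 40.5) and FT (263 ± 62.7) were lowest. The step from STR to HY was the largest, at 0.90 ± 0.14 on the log2 scale (edgeR adjusted p = 2.75e-06).

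Grin2c, known from the thalamus and astrocytes, stood out in the TH at 117 ± 5.67 CPM, with 110 to 124 CPM in the single sections. The next region, the STR, had 50.2 ± 2.10 CPM, and the step between them was 1.28 ± 0.08 on the log2 scale in 6 of 6 sections (edgeR adjusted p = 1.39e-13). All other regions had means of 36.6 to 44.4 CPM. The reticular thalamus, a small cluster of 39 to 55 spots per section that was not tested, held 105 to 159 CPM. Inside the HP, Grin2c had 63.2 to 112 CPM in the spots of the matrix, the neuropil between the cell layers, and 13.7 to 34.7 CPM in CA3.

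Grin2d, a subunit of the diencephalon, was high in the TH (32.2 ± 6.32 CPM) and the HY (29.4 ± 4.09 CPM), a step that did not pass the test (edgeR adjusted p = 0.16). The other 4 regions held 9.26 to 9.76 CPM and did not differ from each other in any neighbouring step. The step from HY to FT was 1.45 ± 0.16 on the log2 scale (edgeR adjusted p = 5.83e-09).

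Grin3a, whose product forms receptors with low calcium permeability, ran against the order of Grin2a. It was highest in the HY (107 ± 16.0 CPM), followed by the TH (61.7 ± 19.1), and lowest in the HP (28.2 ± 12.5). Against the mean of the other regions it was higher in the HY by 1.32 ± 0.09 on the log2 scale (edgeR adjusted p = 4.78e-13) and differed by -0.98 ± 0.11 in the HP (edgeR adjusted p = 1.56e-08). Between these extremes lay the FT (45.5 ± 13), CTX (42.0 ± 10.2) and STR (37.9 ± 12.8), whose neighbouring steps did not pass the test.

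**Figure D1:**
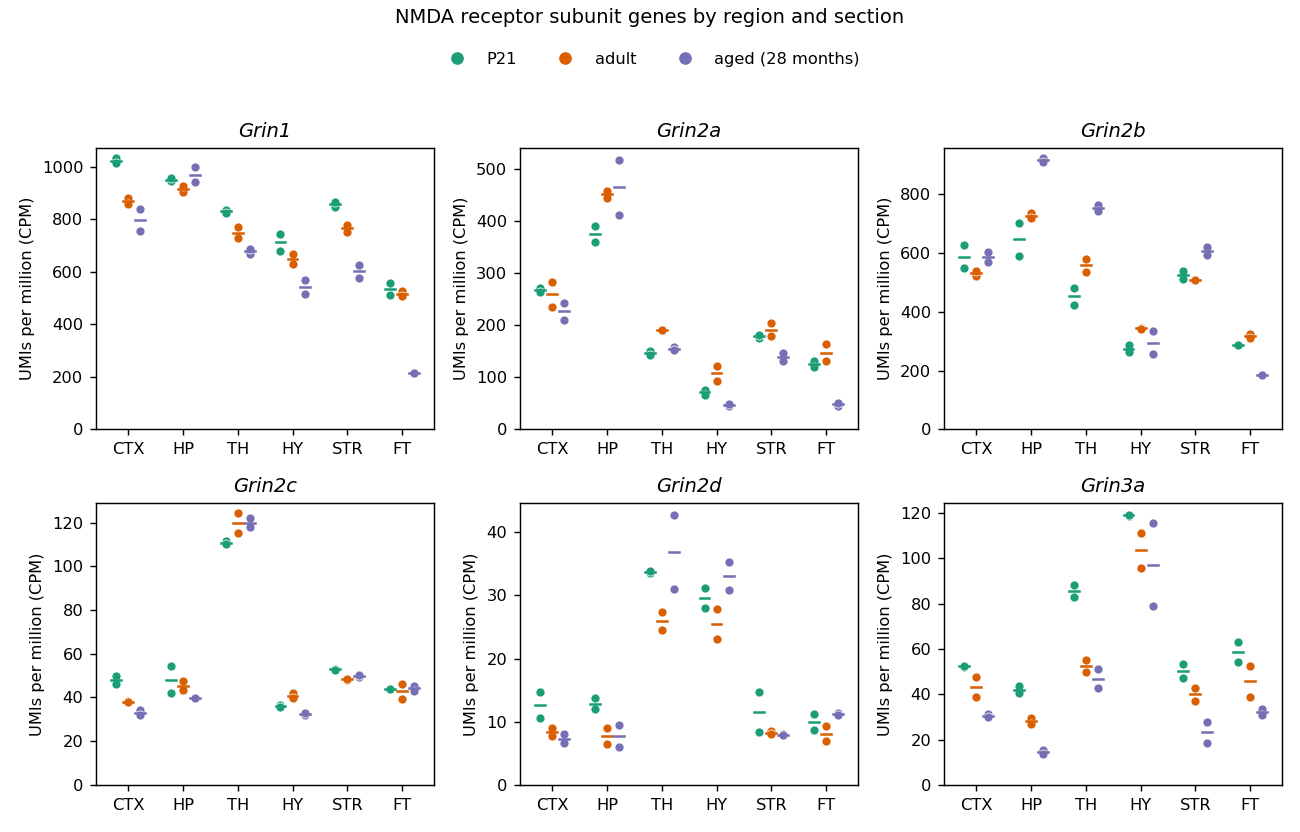
CPM (vertical axis from 0) of each subunit gene in 6 regions (horizontal axis), with 1 point per section coloured by age and a short line at the mean of each age. Grin1, Grin2a and Grin2b are highest in the HP, Grin2c in the TH, Grin2d in the TH and HY, and Grin3a in the HY, and the aged points in the FT lie below the P21 and adult points there for Grin1, Grin2a and Grin2b.

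Over the 36 sums of 6 regions and 6 sections, which share libraries, Grin2a and Grin2b had like profiles (Pearson r = 0.85 of log2(CPM + 1), a description over dependent sums). Grin2d and Grin3a were also alike (r = 0.73), whereas Grin2a and Grin3a ran opposite ways (r = -0.57). Of 11325 genes compared, the closest to Grin1 were Parp6 (r = 0.95), Ppp3cb and Map3k12 (both r = 0.93). The closest to Grin2a were Kalrn and Actr3b (both r = 0.96), and Actr3b was also the closest to Grin2b (r = 0.95). Grin2c was nearest to Prkcd (r = 0.93), a marker in the TH panel, Grin2d to Pcbd1 (r = 0.93), and Grin3a to Nap1l5 (r = 0.95).

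The ratio of Grin2a to Grin2b UMIs compares the RNA counts of these genes between places without any scaling, although its absolute size depends on the probes. It does not measure the subunits in receptors. Its geometric mean over 6 sections was 0.568 in the HP, 0.442 in the CTX, 0.376 in the FT, 0.309 in the STR, 0.284 in the TH and 0.237 in the HY. The HP exceeded the HY in 6 of 6 sections, by 1.26 ± 0.32 on the log2 scale (SD of 6 sections). An exact two-sided sign-flip permutation test gave p = 0.03125, the smallest that 6 sections allow, and 0.0625 after adjustment over the 36 pairs of regions and ratios compared. These pairs were neighbours or extremes in an order taken from the same sections, and the adjustment covers no other pairs. Between neighbours in this order, the HP exceeded the CTX, the CTX the FT, and the FT the STR in 6 of 6 sections each (exact p = 0.03125, adjusted 0.0625). The STR and TH (4 of 6 sections) and the TH and HY (5 of 6) were less separated.

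Relative to Grin1, the subunit that all receptors share, the regions also differed. The ratio of Grin3a to Grin1 was 0.167 in the HY and 0.0272 in the HP, a difference of 2.62 ± 0.83 on the log2 scale. Grin2a to Grin1 ran the other way, from 0.452 in the HP to 0.113 in the HY. Grin2c to Grin1 was highest in the TH (0.156) and lowest in the CTX (0.0440). Each of these pairs of extremes, chosen from the same sections, kept its order in 6 of 6 sections (exact sign-flip p = 0.03125, adjusted over 36 pairs 0.0625). For Grin2c to Grin1, the TH exceeded the next region, the FT (0.111), in only 4 of 6 sections (exact sign-flip p = 0.125, adjusted 0.173).

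**Figure D2:**
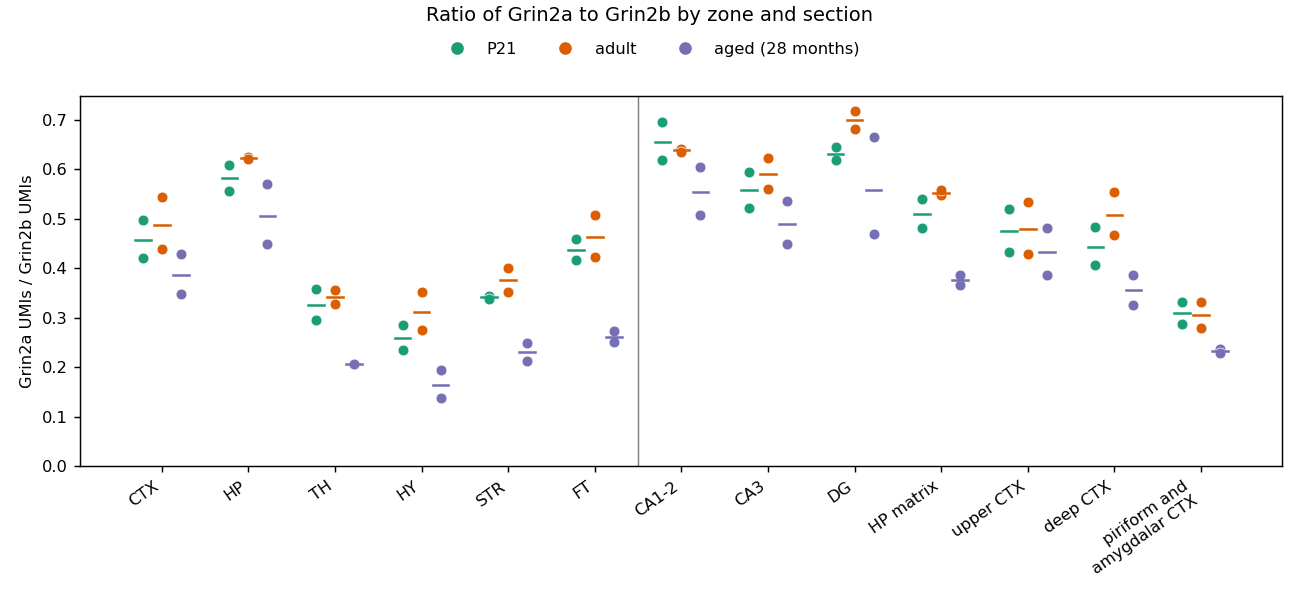
Ratio of Grin2a to Grin2b UMIs (vertical axis from 0) in 6 regions and, right of the line, in 7 subregions (horizontal axis), with 1 point per section coloured by age and a short line at the geometric mean of each age. The HP lies highest and the HY lowest among the regions, and the aged points lie below both adult points in all 6 regions.

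**Figure D3:**
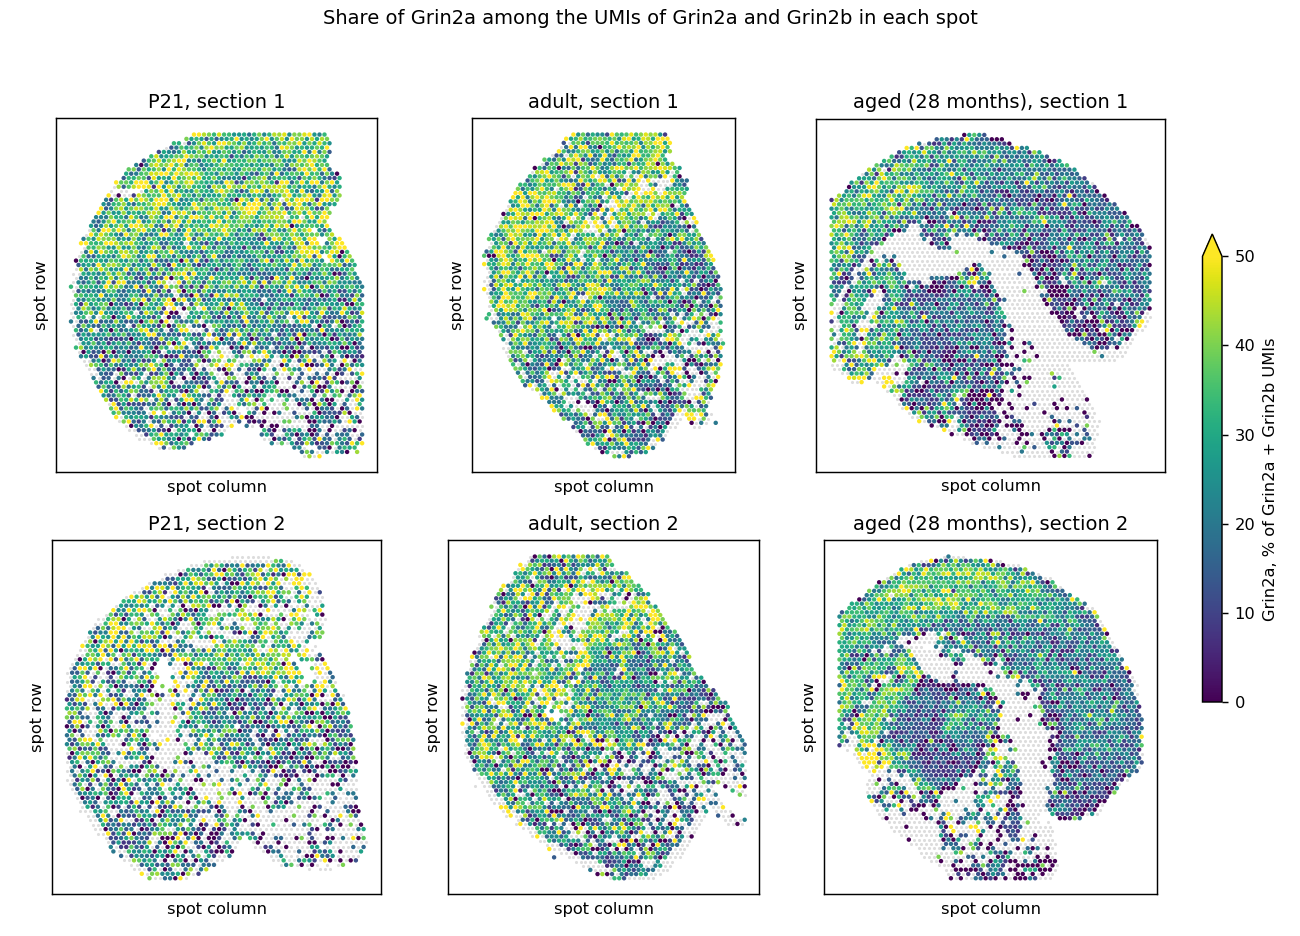
Each of the 6 sections drawn by spot row and column, with spots coloured by the share of Grin2a among Grin2a and Grin2b UMIs (scale 0% to 50%) and spots with fewer than 5 such UMIs in grey. Single spots scatter widely, the upper part of each section, with the cortex and hippocampus, holds more spots near the top of the scale than the lower part, and aged sections show fewer such spots and wide grey bands.

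Whether the RNA of the subunit genes still changes after P21 was asked by comparing P21 with adult. Grin1, Grin2d and Grin3a were higher at P21 in 6 of 6 regions each. Grin2a was lower at P21 in 5 of 6 regions and Grin2b in 4 of 6. A gene was called at an edgeR adjusted p under 0.05 over all genes tested and a fold change over 1.5. By this rule 3 of 36 tests of a subunit in a region were called, 2 higher and 1 lower at P21, beside 5.97% of all tests pooled over the regions. A further 6 tests passed the adjusted p with smaller folds. By region, the adjusted p alone was passed by 3 of 6 members for the CTX (19.8% of all genes), 1 for HP (12.1%), 3 for TH (18.2%), 1 for HY (5.96%), 0 for STR (7.62%) and 1 for FT (26.3%). The regions without a called member, the HP, STR and FT, had 6.39%, 4.04% and 9.03% of all genes called. In whole sections 0 of 6 were called, where 5.12% of all genes were, and 3 of 6 had an edgeR adjusted p under 0.05, beside 30.4% of all genes.

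Grin3a in the TH had 88.5 and 83.0 CPM in the P21 sections and 49.9 and 55.0 CPM in the adult sections. Both P21 sections lay well above both adult sections. The fold change was 1.64 (log2 0.71 ± 0.11 SE, edgeR adjusted p = 0.0014), in a region where 7.0% of genes were called. The same gene passed the adjusted p without the fold in the HP, with 40.5 and 43.7 CPM at P21 against 29.3 and 27.0 in adult (log2 0.57 ± 0.13, edgeR adjusted p = 0.012). It did so in the FT as well (log2 0.38 ± 0.13, edgeR adjusted p = 0.032), and in whole sections it was 75.9 and 80.4 CPM against 51.3 and 58.9 (log2 0.50 ± 0.12, edgeR adjusted p = 0.0070). The HY, where Grin3a was highest, took 18.927% and 17.683% of P21 spots and 12.65% and 13.041% of adult spots. The HP, where it was lowest, took 7.949% and 7.574% against 11.176% and 12.243%. The part of these shares in the whole-section difference was not tested.

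Grin2d in the CTX had 14.7 and 10.6 CPM at P21 and 7.74 and 9.09 CPM in adult, from 83 to 347 UMIs per section. The P21 sections were higher without overlap, but they also differed from each other. The fold change was 1.56 (log2 0.65 ± 0.18, edgeR adjusted p = 0.021), where 5.49% of genes were called. Without P21 section 1 the difference was 0.33 (edgeR adjusted p = 0.44), without adult section 1 it was 0.52 (0.13), and DESeq2 gave an adjusted p of 0.055. In the HP, Grin2d was 13.7 and 12.0 CPM against 9.04 and 6.44, which missed the threshold (log2 0.76 ± 0.25, edgeR adjusted p = 0.067).

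Grin2a in the HY had 75.2 and 67.2 CPM at P21 and 122 and 94.0 CPM in adult, again without overlap. It was the 1 called decrease (log2 -0.60 ± 0.13, fold 1.51, edgeR adjusted p = 0.031), in a region where 3.82% of genes were called. Leaving out either P21 section or adult section 1 ended the call. Using only interior spots, whose neighbours all lay in the same region, ended it as well. In the TH, Grin2a was 152 and 142 CPM at P21 and 190 and 191 CPM in adult (log2 -0.37 ± 0.08, edgeR adjusted p = 0.0078), a change below the fold. Grin2b in the TH moved the same way, from 423 and 481 CPM at P21 to 578 and 535 in adult (log2 -0.30 ± 0.09, edgeR adjusted p = 0.035). Of 5 marker genes of glutamatergic neurons, 1 was called lower at P21 and 0 higher in the HY (median log2 change -0.54). The TH also had 1 called lower and 0 higher (median -0.33). The part of these neurons in the lower Grin2a and Grin2b was not tested.

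Grin1 and Grin2c, the common subunit and the thalamic one, passed the adjusted p only in the CTX. Grin1 had 1032 and 1015 CPM at P21 and 880 and 858 in adult (log2 0.24 ± 0.08, edgeR adjusted p = 0.043). Grin2c had 49.9 and 46.0 CPM at P21 and 38.4 and 37.8 in adult (log2 0.34 ± 0.10, edgeR adjusted p = 0.024). All 8 oligodendrocyte marker genes were called higher at P21 in the CTX, HP, TH, STR and FT and 6 of 8 in the HY, with summed levels in whole sections of 26313 and 27426 CPM against 13163 and 12930, and their part in these comparisons was not tested.

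The ratio of Grin2a to Grin2b was lower at P21 than in adult in 6 of 6 regions, by 0.07 to 0.27 on the log2 scale (mean -0.13). The sections did not overlap in only 2 of them, the HP and the STR. In the HP it was 0.609 and 0.557 at P21 and 0.625 and 0.621 in adult. Under other settings 36 of 42 regional values were lower at P21, with a highest value of 0.10 in the FT over interior spots, and the CTX, TH and FT each turned under 2 settings. An exact permutation test of 2 against 2 sections cannot go below p = 0.333, so these differences could not reach significance. Relative to Grin1, Grin2a was lower at P21 without overlap in all 6 regions, from -0.19 on the log2 scale in the CTX to -0.72 in the HY. Grin2b relative to Grin1 was lower in all 6 regions as well, from -0.09 in the CTX, where the sections overlapped, to -0.45 in the HY. The regions share the same sections, and how often other pairs of genes showed no overlap was not counted.

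In the subregions the P21 calls were again on Grin2d. Of 41 tests, 2 were called, both higher at P21, beside 5.06% of all tests pooled over the 7 subregions. In the deep CTX, Grin2d had 14.1 and 12.4 CPM against 7.88 and 6.24 in adult (log2 0.93 ± 0.26, edgeR adjusted p = 0.017; 5.39% of genes called). In the piriform and amygdalar CTX it had 13.9 and 18.7 CPM against 11.4 and 8.55 (log2 0.69 ± 0.22, edgeR adjusted p = 0.041; 4.25% of genes called). Both calls were lost without P21 section 1 (edgeR adjusted p = 0.31 and 0.058) or without adult section 2 (0.16 and 0.27), and the second also without P21 section 2 (0.37). Grin3a in the piriform and amygdalar CTX (log2 0.53 ± 0.12, edgeR adjusted p = 0.0031) and Grin2a in the DG (log2 -0.48 ± 0.14, edgeR adjusted p = 0.034) passed without the fold. The adjusted p alone was passed by 2 members in the piriform and amygdalar CTX (10.6% of all genes), 1 in the deep CTX (13%) and 1 in the DG (12.4%). It was passed by 0 members in the upper CTX (15.7%), HP matrix (7.49%), CA1-2 (2.75%) and CA3 (2.53%). Calls with the fold made up 9.71% of all genes in the DG, 6.58% in the upper CTX, 4.61% in the HP matrix, 2.26% in CA1-2 and 2.2% in CA3.

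**Figure D4:**
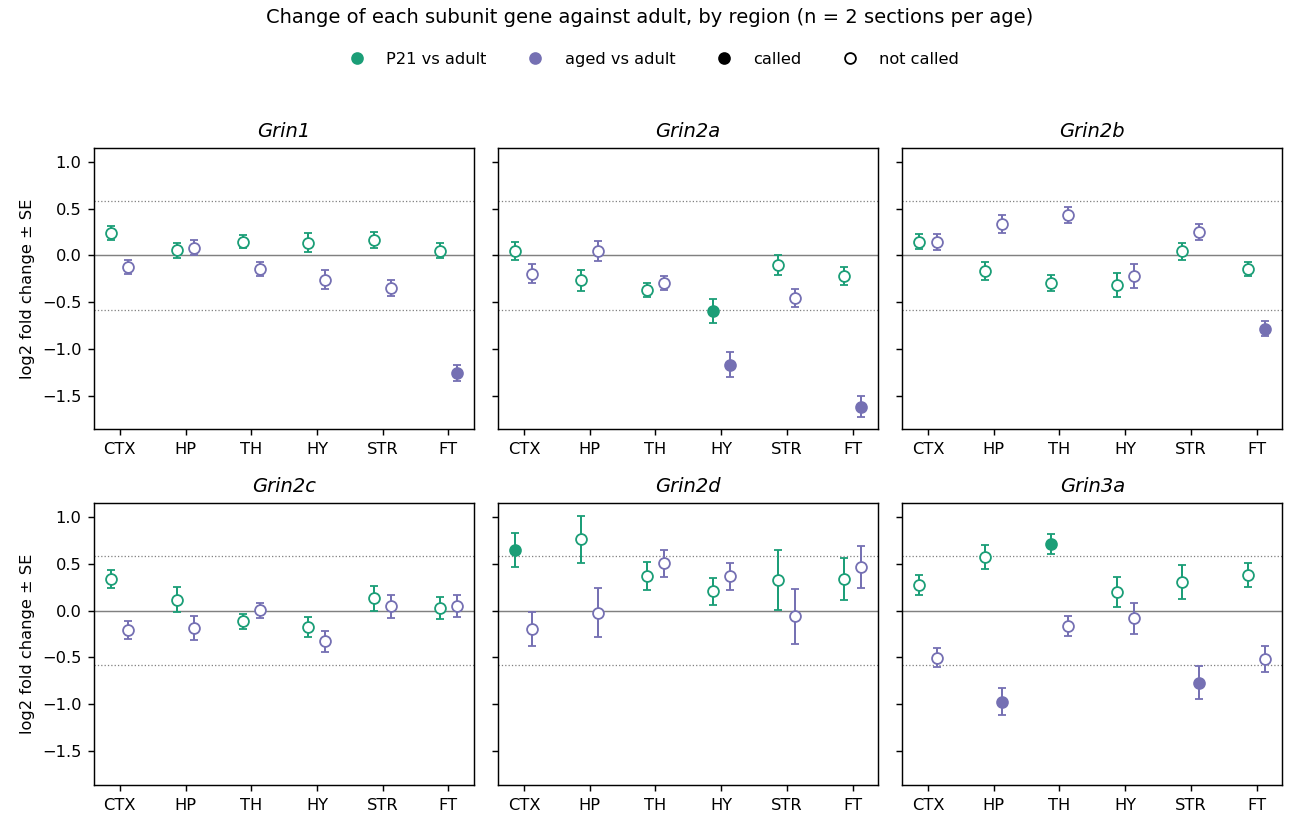
Log2 fold change with its SE (vertical axis) of each subunit gene in 6 regions (horizontal axis), for P21 against adult and aged against adult, with filled points where the gene was called. Grin3a and Grin2d lie above 0 at P21 in every region, Grin3a lies below 0 in aged sections in every region, and the lowest aged values of Grin1, Grin2a and Grin2b are those in the FT. Dotted lines mark the fold of 1.5.

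The comparison of aged with adult sections asked how the subunit genes stood late in life. Grin3a was lower in aged sections in 6 of 6 regions and in all 7 subregions, Grin2a was lower in 5 of 6 regions, and Grin2b was higher in 4 of 6. Of 36 tests, 6 were called, all lower in aged sections, beside 14.8% of all tests pooled over the regions. With the adjusted p alone, 16 passed, 4 higher and 12 lower. They were 1 member for the CTX (40.3% of all genes passed there), 2 for HP (28.9%), 3 for TH (36.6%), 2 for HY (27.7%), 4 for STR (31.7%) and 4 for FT (55.7%). The CTX and TH had no called member, beside 10.5% and 13.7% of all genes called. In whole sections 0 of 6 were called (8.99% of all genes), and 4 of 6 passed the adjusted p, all lower in aged (54.6% of all genes passed in either direction).

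Grin3a in the HP had 29.3 and 27.0 CPM in adult and 15.3 and 13.5 CPM in aged sections, from 115 to 370 UMIs over all 6 sections. The aged sections lay at about the same low level and did not overlap with any other. The fold change was 1.96 (log2 -0.97 ± 0.14, edgeR adjusted p = 0.00039), where 11.2% of genes were called. The call was lost by glmTreat, a test against the fold of 1.5 itself (adjusted p = 0.084), as was that in the STR. There, Grin3a had 37.2 and 43.0 CPM in adult and 18.6 and 27.9 in aged (log2 -0.77 ± 0.18, edgeR adjusted p = 0.0026; 14.3% of genes called). Without aged section 1 the STR difference was -0.52, under the fold. In the CTX the gene passed the adjusted p alone, with 38.9 and 47.6 CPM against 31.2 and 29.8 (log2 -0.50 ± 0.10, edgeR adjusted p = 0.0017).

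Grin3a was also lower in the subregions of the HP and CTX and in the piriform and amygdalar CTX, a cluster of its own outside the 6 regions. In the DG it had 19.97 and 24.2 CPM in adult and 8.81 and 10.9 in aged (log2 -1.11 ± 0.29, edgeR adjusted p = 0.024; 6.59% of genes called), from as few as 11 UMIs per section. In the deep CTX it had 34.6 and 41.3 CPM in adult and 25.03 and 23.3 in aged (log2 -0.65 ± 0.14, edgeR adjusted p = 0.00072; 11.8% of genes called). These were the 2 calls among 41 tests in subregions, where 10.6% of all tests were called. The DG call was lost without either adult section (edgeR adjusted p = 0.087 and 0.23) and by DESeq2 (0.22), and the deep CTX call fell under the fold without adult section 2 (-0.53). Grin3a passed the adjusted p alone in the HP matrix (log2 -0.56 ± 0.19), the upper CTX (-0.45 ± 0.16) and the piriform and amygdalar CTX (-0.52 ± 0.12). Over all members the adjusted p was passed by 3 each in the deep CTX (32.7% of all genes) and the piriform and amygdalar CTX (36.2%), 2 in the HP matrix (25.8%), 1 each in the upper CTX (33.1%), DG (9.39%) and CA3 (12.9%), and 0 in CA1-2 (10.9%). Calls with the fold made up 14.5% of all genes in the HP matrix, 12.9% in the upper CTX, 12.6% in the piriform and amygdalar CTX, 7.46% in CA3 and 7.38% in CA1-2.

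Grin2b, by contrast, lay higher in the aged HP, TH and STR. It had 733 and 717 CPM in the adult HP and 919 and 907 in the aged HP (log2 0.33 ± 0.10, edgeR adjusted p = 0.020). In the TH it rose from 578 and 535 to 763 and 741 CPM (log2 0.43 ± 0.09, edgeR adjusted p = 0.0031), and in the STR from 508 and 508 to 618 and 591 CPM (log2 0.25 ± 0.09, edgeR adjusted p = 0.030). None of these changes reached the fold of 1.5. Grin2d in the TH also passed the adjusted p, with 24.5 and 27.4 CPM in adult and 42.8 and 31.0 in aged (log2 0.51 ± 0.15, edgeR adjusted p = 0.021).

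Grin2a in the HY had 122 and 94.0 CPM in adult and 46.0 and 49.8 in aged sections. Both aged sections were below every P21 and adult section. The fold change was 2.25 (log2 -1.17 ± 0.13, edgeR adjusted p = 0.00080), where 11.8% of genes were called. Grin2a passed the adjusted p alone in the STR, at 204 and 179 CPM against 132 and 147 (log2 -0.46 ± 0.10, edgeR adjusted p = 0.0015), and in the TH, at 190 and 191 against 158 and 152 (log2 -0.30 ± 0.08, edgeR adjusted p = 0.012).

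Markers of glutamatergic neurons of the cortex and hippocampus moved with these regions. In the HY, the vesicular glutamate transporter gene Slc17a7 had 707 and 674 CPM in adult and 105 and 67.5 in aged sections (log2 -3.01). The 5 genes of the glutamatergic list summed to 908 to 981 CPM in the adult HY and 339 to 437 in the aged HY, and 4 of 5 were called lower and 1, Slc17a6, higher. In the STR all 5 were called lower, with sums of 1188 CPM in both adult sections and 215 to 329 CPM in aged sections. In the TH 4 of 5 were called lower, with a median log2 change of -2.64 and sums of 1625 to 1802 CPM against 1222 to 1485. The remaining gene, Slc17a6, was higher in the aged TH, at 615 and 527 CPM against 367 and 401 in adult. This change passed the adjusted p alone (log2 0.57, edgeR adjusted p = 0.0010). In the CTX 0 of 5 were called (median -0.02), and in the HP 1 was called higher and 1 lower (median 0.15). No defining marker of the list was at 0 in any region, and the part of these neurons or of the slide version in the lower Grin2a outside the CTX and HP was not tested. Fewer cells of a type, less RNA per cell and a different mix of spots in a region cannot be told apart in such sums. The STR held 168 and 155 spots in adult and 250 and 250 in aged sections. Of these, 78 and 76, and 157 and 145, had only STR spots as neighbours. The 7 GABAergic genes summed to 1698 to 1820 CPM in the adult STR and 2303 to 2412 in the aged STR, with 3 called higher and 2 lower. The part of such mixing was not tested.

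In the FT, Grin1, Grin2a and Grin2b were called lower in aged sections. Grin1 had 526 and 507 CPM in adult and 216 and 216 in aged sections (log2 -1.26 ± 0.08, fold 2.39, edgeR adjusted p = 4.85e-11). Grin2a had 164 and 131 CPM against 46.0 and 50.2 (log2 -1.62 ± 0.11, fold 3.07, edgeR adjusted p = 7.13e-11). Grin2b had 324 and 311 CPM against 184 and 184 (log2 -0.79 ± 0.08, fold 1.73, edgeR adjusted p = 3.54e-08). Grin3a was lower as well and passed the adjusted p alone, with 38.9 and 52.6 against 33.3 and 30.9 CPM (log2 -0.51 ± 0.14, edgeR adjusted p = 0.0035). Grin2d went the other way without passing, with 6.90 and 9.31 against 11.4 and 11.1 CPM (log2 0.47 ± 0.22, edgeR adjusted p = 0.079). Grin2c, with 46.2 and 39.2 against 45.3 and 43.1 CPM, overlapped between the ages. The FT was the region with the highest share of called genes, at 27.2%.

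Other cell type markers changed in the FT as well. Of 10 pan-neuronal genes, 7 were called lower in aged sections there, with sums of 6662 to 6944 CPM in adult and 3643 to 3667 in aged (median log2 change -0.72), whereas their medians in the other 5 regions were -0.09 to 0.04. All 5 glutamatergic genes were lower in the FT, with sums of 1572 to 1609 CPM in adult and 606 to 633 in aged. Of 9 astrocyte genes, 5 were called higher, with sums of 4209 to 4247 CPM against 7188 to 7283, and of 6 microglial genes, 5 were higher, with sums of 601 to 682 against 1852 to 1918 CPM. The part of neuronal RNA in the spots of the FT in the lower subunit genes was not tested.

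**Figure D5:**
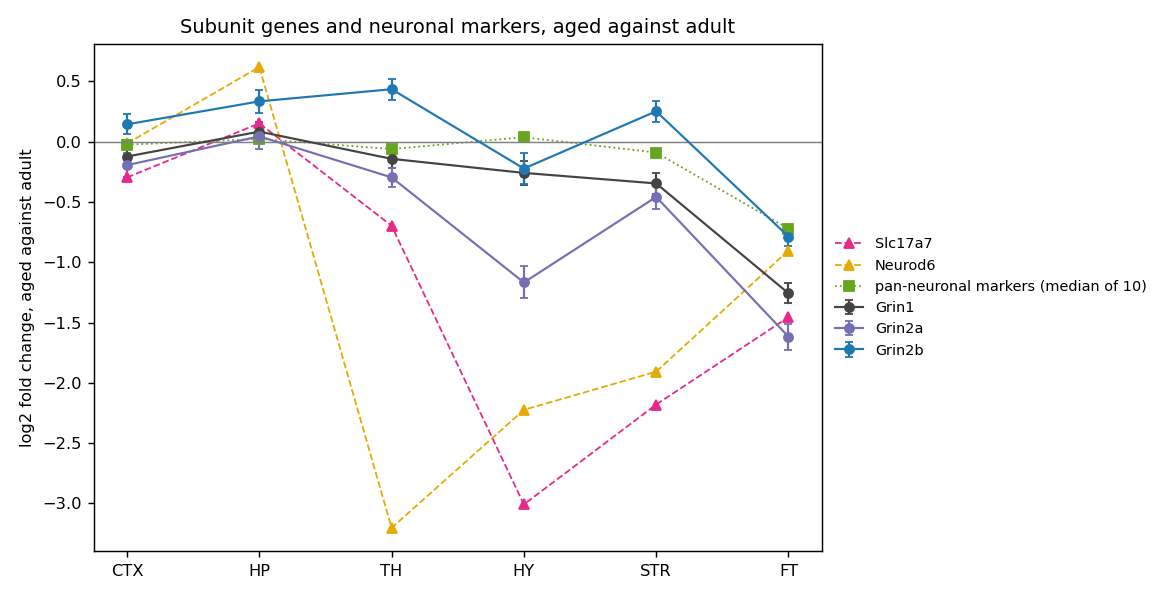
Log2 fold change of aged against adult (vertical axis) in 6 regions (horizontal axis) for Grin1, Grin2a and Grin2b (solid lines, with SE), the glutamatergic markers Slc17a7 and Neurod6 (dashed lines) and the median of 10 pan-neuronal markers (dotted line). In the HY and STR, Slc17a7 and Neurod6 lie far below 0 while the pan-neuronal median stays near 0. In the FT these markers and the median lie below 0 together with Grin1, Grin2a and Grin2b. Slc17a6, of the same marker list, is not drawn. It was higher in the aged HY (log2 0.62) and TH (log2 0.57) and lower in the CTX, HP, STR and FT.

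The ratio of Grin2a to Grin2b was lower in aged than in adult sections in 6 of 6 regions, and the sections did not overlap in any of them. In the HP it was 0.625 and 0.621 in adult and 0.448 and 0.571 in aged (1.23-fold). In the CTX it was 0.544 and 0.438 against 0.349 and 0.429 (1.26-fold). The aged sections differed from each other in both regions but stayed below both adult sections. In the TH and HY, 4 of 5 glutamatergic markers were called lower and Slc17a6 was higher. The ratio was 0.329 and 0.357 against 0.207 and 0.206 in the TH (1.66-fold). It was 0.353 and 0.276 against 0.138 and 0.195 in the HY (1.90-fold). The mean log2 difference over the 6 regions was -0.64, with a range of -0.30 to -0.93. With the median ratio over spots in place of summed UMIs, the difference was -0.31 in the HY and -0.10 in the FT, and the mean was -0.44. Each comparison of 2 against 2 gave the smallest exact permutation p, 0.333, as any comparison without overlap does. The regions share the same sections and are not independent. The probe design also differed between aged and adult sections, so that age and probe design cannot be told apart in this ratio. How often other pairs of genes showed no overlap was not counted.

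Subregions gave the same direction in 7 of 7, with no overlap in 6. They came from the same sections as the regions, and other pairs of genes were not counted for comparison. In CA1-2, where Grin2a was densest (715 to 866 CPM over all sections), the ratio was 0.642 and 0.636 in adult and 0.509 and 0.605 in aged. In the upper CTX the values overlapped, at 0.534 and 0.430 against 0.388 and 0.482. The HP matrix had the largest difference of the hippocampal subregions, at 0.548 and 0.558 against 0.365 and 0.387 (1.47-fold). The ratio of Grin2b to Grin1 was higher in aged sections by 0.25 (HP) to 0.60 (STR) on the log2 scale in 5 regions without overlap, and by 0.03 in the HY, where the sections overlapped.

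Differences between regions in the change with age were tested by the region-by-age terms of an edgeR fit with the section as a block, which absorbs whatever acts alike on a gene in a whole section. For P21 against adult, 3 of 6 members passed, beside 12.5% of all genes: Grin2b (edgeR adjusted p = 0.0046), Grin2a (0.0085) and Grin2c (0.011). Leaving out P21 section 1 or either adult section left 0 of 6, and leaving out P21 section 2 left 1, Grin2c. For aged against adult, 5 of 6 passed, beside 48.2% of all genes, and Grin2d did not (edgeR adjusted p = 0.085). Without the FT, Grin1 (0.011), Grin2a (1.08e-05), Grin2b (0.00036) and Grin3a (0.0059) still passed, beside 23.9% of all genes, and Grin2c did not (0.083). Grin2c was kept in only 3 of 10 settings and was lost without any single adult or aged section (edgeR adjusted p = 0.14, 0.28, 0.069 and 0.16). Grin3a was lost without adult section 1 (edgeR adjusted p = 0.11).

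Genes that supply, anchor, move or modify the receptor were counted from a list of 73 genes, of which 67 were tested. At P21, 0 were called in the CTX (5.49% of all genes were), 3 each (4.48% of the list) in the HP, HY and FT (6.39%, 3.82% and 9.03% of all genes) and 2 each (2.99%) in the TH and STR (7.0% and 4.04%), with medians of -0.11 to 0.07 on the log2 scale. In the aged TH, 2 were called higher and 12 lower (17.9% of the list, beside 7.22% of all genes lower). The aged HY had 1 higher and 15 lower (22.4%, beside 5.31%), and the aged FT 2 higher and 31 lower (46.3%, beside 14.7%). The share called in either direction lay near that of all genes in the STR, with 2 higher and 7 lower (13.4%, beside 14.3%), and in the HP, with 4 higher and 3 lower (10.4%, beside 11.2%). The CTX had 1 higher and 2 lower (4.48%, beside 10.5%). The median of the list in the FT was -0.52, beside -0.04 over all genes tested.

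Among the genes for co-agonist supply and uptake, Slc6a9, the glial glycine transporter GlyT1, was called lower in aged sections in 3 regions, most in the HP (log2 -0.83 ± 0.12, edgeR adjusted p = 0.00030). Srr, the serine racemase that makes D-serine, was called higher at P21 in the TH (log2 0.62 ± 0.10, edgeR adjusted p = 0.0020) and lower in the aged HY (log2 -0.75 ± 0.13, edgeR adjusted p = 0.0047). Phgdh, which starts the synthesis of serine in astrocytes, was higher in the aged FT (log2 0.81 ± 0.08, edgeR adjusted p = 5.88e-08).

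Of the 17 scaffold and anchoring genes tested, 13 were called lower in the aged FT (76.5%, beside 14.7% of all genes lower), 6 lower and 1 higher in the aged HY (35.3% lower, beside 5.31%), and 5 lower and 1 higher in the aged TH (29.4% lower, beside 7.22%). Shank1, a scaffold of the postsynaptic density, moved the other way and was called higher in 5 of 6 regions, with the largest change in the CTX (log2 1.25 ± 0.09, edgeR adjusted p = 3.25e-07). Dlgap1 and Dlgap2, which link PSD-95 to the Shank scaffold, were each called lower in 3 regions, with the lowest values in the FT for Dlgap1 (log2 -0.92 ± 0.08) and in the TH for Dlgap2 (log2 -2.66 ± 0.18). At P21, Dlgap1 was lower in all 6 regions and was called in the HY alone (log2 -0.71 ± 0.09, edgeR adjusted p = 0.0037). Its smallest change, in the STR, also passed the adjusted p (log2 -0.34 ± 0.09, edgeR adjusted p = 0.027).

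Among the transport genes, Lin7b, part of the complex that ties receptor cargo to a kinesin, was called lower in aged sections in 5 regions, with the lowest value in the FT (log2 -1.79 ± 0.10). Kif17, the motor of that complex, was called higher in the aged STR (log2 0.66 ± 0.15, edgeR adjusted p = 0.0017). Of the kinases and calcium signalling genes, Fyn, a tyrosine kinase that phosphorylates GluN2 subunits, was called higher at P21 in 4 regions, with the largest change in the FT (log2 1.49 ± 0.09). The authors also list Fyn among the myelination genes higher at P21 in the HP, TH, HY and STR. All 8 oligodendrocyte marker genes were called higher in the P21 FT, and their part in the change of Fyn was not tested. Nos1, the neuronal nitric oxide synthase coupled to the receptor, was called lower at P21 in 3 regions, most in the HP (log2 -0.85 ± 0.15). In aged sections Camk2g, a subunit of a calcium-dependent kinase, was called lower in 4 regions, with the lowest value in the FT (log2 -0.86 ± 0.08).

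Of the factors linked to the exchange of GluN2B for GluN2A, Rest, a transcriptional repressor, was called higher at P21 in 3 regions, most in the STR (log2 1.42 ± 0.34, edgeR adjusted p = 0.012). Wnt5a, a secreted ligand, was higher at P21 in the HP (log2 0.75 ± 0.19, edgeR adjusted p = 0.023). Reln, the secreted protein reelin, was called lower in aged sections in 3 regions, most in the TH (log2 -2.40 ± 0.15, edgeR adjusted p = 3.82e-06). Bdnf, a growth factor, was called lower in 2 regions, with the lowest value in the FT (log2 -1.14 ± 0.15).

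Moran's I, a score of how alike neighbouring spots are, was deposited for each gene and section. In adult sections it was 0.228 and 0.180 for Grin1, 0.222 and 0.218 for Grin2a, and 0.247 and 0.216 for Grin2b. Grin2c (0.152 and 0.135), Grin3a (0.147 and 0.137) and Grin2d (0.0694 and 0.0685) scored lower. P21 sections reached 0.305 and 0.234 for Grin1, 0.419 and 0.246 for Grin2a and 0.378 and 0.283 for Grin2b. Aged sections scored above every other section for all 6 genes, with 0.523 and 0.520 for Grin1, 0.481 and 0.568 for Grin2a and 0.60 and 0.627 for Grin2b. The median over 50 region marker genes was also higher in aged sections, at 0.653 and 0.652 against 0.424 to 0.495 in the other 4, where the slide version differed as well. Among all genes scored in a section, Grin1, Grin2a and Grin2b ranked between percentiles 94.7 and 99.1. Grin2c ranked lower in aged sections (percentiles 90.4 and 89.9) than in the others (92.2 to 93.3), although its score was higher.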

How the data were processed

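Spatial libraries of 6 sections (2 per age) were analysed. The authors deposited raw UMI counts per gene and spot, with spot positions and image scale factors. The file headers name Space Ranger 2.0.0 for P21 and adult and 3.1.1 for aged sections, while the submitters' processing notes list Space Ranger 2.1.0, Seurat 5.1.0 and mm10, and the labels give the v1 slide kit for all samples. The authors also deposited Moran's I scores per gene and section. The deposited p-values of these scores and a deposited signal, the mean count per spot scaled to the median depth, are not reported, and the image scale factors were not used.

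Spots with at least 250 genes and 500 UMIs were kept. Regions were rebuilt by Leiden clustering of a graph of shared neighbours (3000 variable genes, 10 components, 20 neighbours, resolution 0.5). They were named from marker panels, since the authors' spot labels were not used here. A score by panel alone gave the same region for 76.8% of spots. Counts were summed per section and region. Genes had to pass filterByExpr, be detected in over 10% of a region's spots at either age and in at least 10% of all spots. Sums were tested with edgeR 4.0.16 (TMM, quasi-likelihood, all ages in one fit) and Benjamini-Hochberg adjustment over all genes tested. The labels name sections as biological replicates, and no doublet caller was run. Printed CPM are TMM-scaled, while the correlations between genes used CPM without these factors. Ratios were compared by exact permutation over sections. The members, the gene lists and the rule for pathway genes named (per role and comparison at most the 3 called in the most regions, ties by mean change) were chosen with earlier results of these data known. Some genes that this rule names are not reported here. Alternatives included DESeq2 1.42.0, and the tests were tried on simulated data.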

Additional observations from a re-analysis of the deposited data

Results flagged for a closer look

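The change with age differed between regions for several subunit genes, by the region-by-age terms of the edgeR fit. For P21 against adult the adjusted p was 0.00458 for Grin2b, 0.00852 for Grin2a and 0.0111 for Grin2c. For aged against adult it was 5.83e-10 for Grin1, 1.42e-09 for Grin2a, 5.09e-09 for Grin2b, 0.00528 for Grin3a and 0.0280 for Grin2c. The aged call of Grin2c held in only 3 of 10 settings, with an adjusted p of up to 0.33.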

How the results depend on the processing

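Of 558 values under other settings, 469 were classed the same, 77 weaker, 9 stronger, 3 moved and 0 reversed. For a called test, weaker means that the threshold was lost, and 0 called tests turned direction. A count of calls or a ratio has no such threshold, and for a ratio these classes do not show whether the sign was kept. Among 2403 tests of members called under neither setting, 85 changed sign, and the P21 ratio of Grin2a to Grin2b was higher in 6 of 42 regional values. In whole sections the P21 count of 0 became 1 (Grin2d) at thinned depth, and 0 to 1 on leaving out a section, as did the aged count. In the 6 regions the P21 count of 3 became 0 by glmTreat and 1 to 4 without a section, and the aged count of 6 became 4 by glmTreat and 5 to 8 without a section. In subregions the P21 count of 2 became 0 by DESeq2, glmTreat and thinned depth, 1 by library size scaling and 0 to 3 without a section, and the aged count of 2 became 1 by DESeq2, 0 by glmTreat and thinned depth and 0 to 4 without a section. The region-by-age counts became 0 to 4 (P21, from 3) and 3 to 5 (aged, from 5) without a section. The mean aged difference of the Grin2a to Grin2b ratio, -0.64, was -0.44 by the median over spots and -0.76 to -0.51 without a section, and the P21 difference was -0.22 to -0.03. The causes were not tested. With the replicate number as a block the counts were 3 and 6 in regions, 2 and 2 in subregions and 0 and 0 in whole sections. The differences per gene between section 1 and section 2 of an age were correlated between ages. They correlated at 0.15 (P21 and adult), -0.14 (P21 and aged) and -0.41 (adult and aged), so the numbers did not pair the samples. A crossed block, chosen after seeing the data, gave the same counts. Depth limits Grin2d and Grin3a in small subregions.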
